A study of Homo sapiens with 8 samples.

Results

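The transcripts described here come from 10 genes for secreted inflammatory mediators: the interleukins IL1A, IL1B, IL6 and IL32, the IL-6 family cytokine LIF, and the chemokines CXCL1, CXCL2, CXCL3, CXCL8 and CCL2. They were picked by gene symbol from the 28265 RefSeq genes of the count tables, and the 10 symbols were all found there. IMR90, a line of human lung fibroblasts of fetal origin, was assayed at low passage by factory RNA-Seq, which sequences RNA from transcription sites to enrich for nascent transcripts. The 4 conditions, with 2 libraries each, were wild-type cells labelled young, for which the labels give no vehicle, cells kept in 10 µM inflachromene (ICM, a small molecule that binds HMGB1 and HMGB2) for 3 days or for 6 days, and cells labelled MetaICM, a treatment that neither the labels nor the methods explain. The sample labels name poly(A) selection as the enrichment step, and the values below are read pairs on exons, so they do not separate nascent from mature RNA. Each library held 12095123 to 23166405 counted pairs. Nothing in the labels says whether the 2 libraries of a condition came from separate cultures, so the tests measure the spread between these libraries, and a condition with fewer producing cells cannot be told apart from one with less RNA per cell.

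Senescent fibroblasts are known for secreting a mixture of cytokines, chemokines, growth factors and proteases termed the senescence-associated secretory phenotype (SASP). IL-1α, held at the cell surface, signals through the IL-1 receptor to NF-κB and C/EBPβ, which switch on IL6, CXCL8 and further members. CXCL1, CXCL2, CXCL3 and CXCL8 attract neutrophils, CCL2 attracts monocytes, and IL-6 and LIF signal through receptors that share the gp130 subunit (IL6ST) to STAT3. HMGB1 and HMGA proteins are among the chromatin factors linked to this secretion.

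The 3 CXCL paralogs share near-identical proximal promoters, so these are shown together with those of IL6 and CXCL8. Of the 10 genes, 8 had an entry in the RefSeq promoter table (GRCh38.p14; 250 bases before to 50 after the start); CCL2 and LIF had none. The stretches below are the last 110 bases before the start, 5′ to 3′ on the gene's strand, taken from that table and matched exactly to GRCh37 (hg19), whose coordinates are given. Capitals mark letters that match the 10-base NF-κB consensus on either strand, with overlapping matches merged.
CXCL1 (chr4:74735000-74735109, plus strand): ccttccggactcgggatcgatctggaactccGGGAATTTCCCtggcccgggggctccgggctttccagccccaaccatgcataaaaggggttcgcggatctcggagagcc
CXCL2 (chr4:74964913-74965022, minus strand): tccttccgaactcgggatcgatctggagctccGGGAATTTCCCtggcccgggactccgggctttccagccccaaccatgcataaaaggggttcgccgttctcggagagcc
CXCL3 (chr4:74904407-74904516, minus strand): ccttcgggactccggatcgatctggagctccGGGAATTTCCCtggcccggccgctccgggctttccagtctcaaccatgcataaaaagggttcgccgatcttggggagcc
IL6 (chr7:22766709-22766818, plus strand): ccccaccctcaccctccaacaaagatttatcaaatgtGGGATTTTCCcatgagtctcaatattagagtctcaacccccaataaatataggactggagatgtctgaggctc
CXCL8 (chr4:74606176-74606285, plus strand): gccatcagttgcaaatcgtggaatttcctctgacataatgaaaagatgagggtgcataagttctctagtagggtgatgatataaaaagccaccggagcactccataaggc

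Within these 110 bases, CXCL1 was 93.7% identical to CXCL2 and 90.0% to CXCL3 in a global alignment, against 45.3% to CXCL8. Exact matches to the NF-κB consensus were present in the 300-base windows of IL6, CXCL1, CXCL2, CXCL3 and IL32, which is 5 of 8 genes against 5.91% of the 35116 promoters in the table. The CXCL1, CXCL2 and CXCL3 matches sit in near-identical promoters, so they are not independent. Inexact sites were not searched, and the CXCL8 stretch holds tggaatttcc, which differs from the consensus only in its leading base. The AP-1 letters TGANTCA stood in the windows of IL1A and CXCL8 (7.71% of all promoters), and the C/EBP letters TTNNGNAAT, searched on both strands like the AP-1 letters, in those of IL1A, IL1B and IL6 (11% of all promoters). TATAAA, searched on the gene's strand as exact letters, was found for IL1A and CXCL8 (7.33% of all promoters). Relative to the start it lay at -239 to -234 in IL1A and at -31 to -26 in CXCL8. A match describes letters and not occupancy, and the count tables hold no measurement of binding.

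The AU-rich nonamer TTATTTATT, a sequence class by which many cytokine mRNAs are targeted for decay, occurred in the exons of IL1B, CXCL1, CXCL2, CXCL3, CXCL8 and LIF. CXCL2 held 5 copies in 1115 exonic bases, CXCL1 held 3, IL1B and LIF held 2, and CXCL3 and CXCL8 held 1. Among the 28207 genes with exons placed on GRCh37, 7.62% held at least 1 copy. The exons of the CXCL paralogs also overlap in sequence, since 4.80% of the distinct 50-base words of CXCL1 recurred in CXCL2 and 4.90% of those of CXCL3 did. Pairs mapping to several places were not counted, so these genes may be undercounted at those words. CXCL1, CXCL2, CXCL3 and CXCL8 lie on chromosome 4 between 74606286 and 74964912, IL1A and IL1B on chromosome 2 between 113531502 and 113594356.

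The 2 young libraries gave different values for part of the set, so every value below is given for replicate 1 and replicate 2 in that order. Values are counts per 1e6 counted pairs (CPM) scaled by the TMM method over the 8 libraries. CXCL8 received 23.2 and 2.40 CPM in the young libraries, a ratio of 9.66 with a 95% exact binomial interval from 6.62 to 14.6. CXCL2 received 2.32 and 0.166 CPM, or 39 and 2 counts, a ratio of 14.0 (3.62 to 120). CXCL3 received 2.85 and 0.414 CPM (ratio 6.89, 2.76 to 22.2) and IL1B 7.31 and 2.73 CPM (2.68, 1.81 to 4.06). These 4 of 10 genes were more than 2-fold higher in young replicate 1, while none was more than 2-fold lower. Over 16582 genes, 3.28% were more than 2-fold higher in young replicate 1 and 2.99% were more than 2-fold lower. The intervals cover counting error only, and the comparison is of 1 library with 1. Fits below with 1 library left out take the spread of the lone library from the other condition. Their calls and counts show how a result depends on a library and measure no difference between conditions.

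The other 6 genes were closer between the young libraries. IL32 had a ratio of 1.90 (1.07 to 3.54), IL6 of 1.59 (1.15 to 2.23) and LIF of 1.53 (1.42 to 1.65), with intervals that leave out 1. CXCL1 at 1.22 (0.651 to 2.38), CCL2 at 1.14 (0.861 to 1.52) and IL1A at 0.838 (0.573 to 1.23) had intervals that hold 1. In the ICM and MetaICM pairs, CXCL8 had ratios of 1.36 after 3 days, 0.915 after 6 days and 0.593 in MetaICM, so its young pair lay furthest apart. The source of the difference between the young libraries was not tested. Among genes over 2-fold apart in the young pair were also CXCL5, another neutrophil chemokine of the chromosome 4 cluster, with 40 and 0 counts, and GDF15, a stress-induced cytokine, with 829 and 139.

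**Figure D1:**
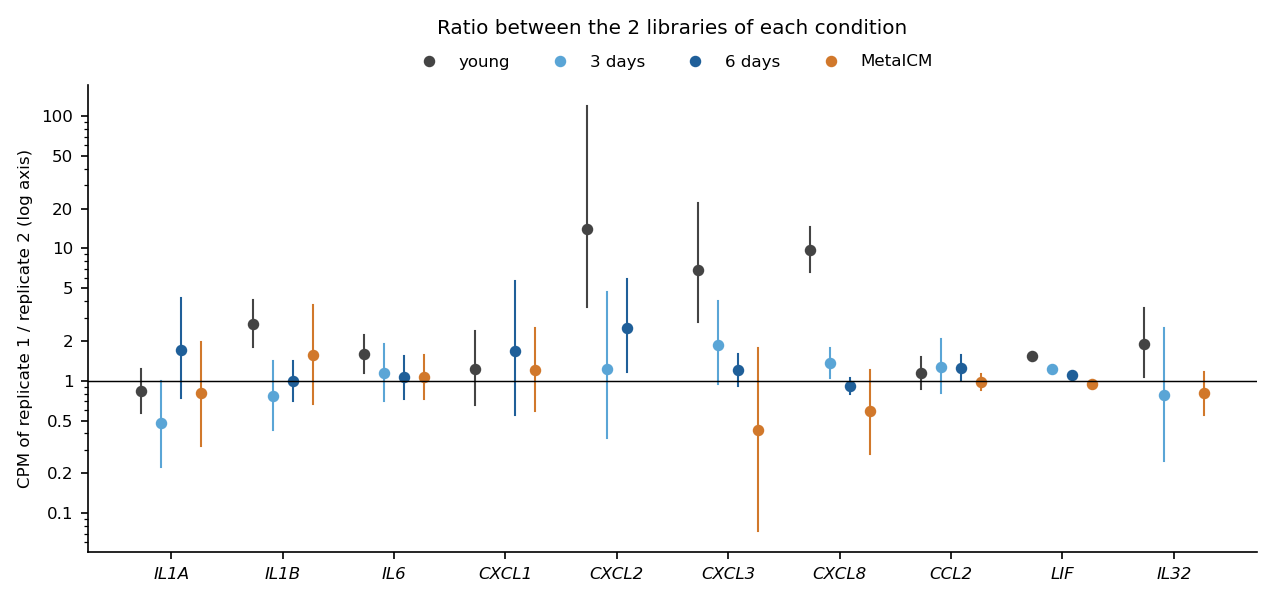
Ratio of replicate 1 to replicate 2 in CPM (log axis) for each of the 10 genes, coloured by condition, with 95% exact binomial intervals as bars; pairs with a library at 0 counts are left out (CXCL1 at 3 days, CXCL2 in MetaICM, IL32 at 6 days). The young pairs of CXCL2 (14.0), CXCL8 (9.66) and CXCL3 (6.89) stand above the pairs of those genes in the other conditions.

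IL1A, which encodes the membrane-bound upstream ligand of the SASP, was lower in the ICM and MetaICM libraries than in either young library. It received 3.75 and 4.47 CPM in the young libraries, 0.644 and 1.35 after 3 days, 0.913 and 0.531 after 6 days, and 0.495 and 0.608 in MetaICM. No treated library overlapped with the young ones. In edgeR's quasi-likelihood test over all genes, IL1A fell by 2.10 ± 0.37 (SE) on the log2 scale after 3 days (adjusted p = 0.00133), by 2.49 ± 0.34 after 6 days (adjusted p = 0.000262) and by 2.87 ± 0.33 in MetaICM (adjusted p = 0.00039). These 3 comparisons share the young libraries. IL1A did not pass the test between 6 and 3 days (log2FC -0.40 ± 0.47, adjusted p = 0.607) or between MetaICM and 6 days (-0.38 ± 0.44, adjusted p = 0.497).

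IL1B, the secreted ligand of the same receptor that is cut to its active form by caspase-1, followed another course. Its libraries held 7.31 and 2.73 CPM in young cells, 1.20 and 1.55 after 3 days, 3.70 and 3.72 after 6 days, and 0.743 and 0.478 in MetaICM. The 6-day values lay between those of the 2 young libraries, and the 3-day and MetaICM values lay below both. IL1B fell by 1.92 ± 0.43 after 3 days (adjusted p = 0.00538) and by 3.09 ± 0.48 in MetaICM (adjusted p = 0.002), while after 6 days it differed by -0.48 ± 0.36 from young cells without passing the test (adjusted p = 0.313). With young replicate 2 as the only control, the 3-day value was -1.01 and was not called, so that call rested on young replicate 1. The MetaICM value was -2.17 against young replicate 2 alone. Between 3 and 6 days, IL1B rose by 1.45 ± 0.29 (adjusted p = 0.00136).

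IL6, a central SASP cytokine, was lower than in young cells under ICM and MetaICM. Young libraries held 7.25 and 4.55 CPM, 3-day libraries 2.16 and 1.89, 6-day libraries 3.28 and 3.08, and MetaICM libraries 2.72 and 2.56. The lowest young library lay above all 6 others. IL6 fell by 1.55 ± 0.30 after 3 days (adjusted p = 0.0024), by 0.92 ± 0.26 after 6 days (adjusted p = 0.018) and by 1.18 ± 0.26 in MetaICM (adjusted p = 0.00967). The 6-day call was lost without young replicate 1 (log2FC -0.53, adjusted p = 0.14), without 6-day replicate 1 (adjusted p = 0.0882) and without 6-day replicate 2 (adjusted p = 0.0758), and the MetaICM call without MetaICM replicate 2 (adjusted p = 0.0538). The antisense gene IL6-AS1 overlaps 53 exonic bases of IL6 and held 6 to 12 counts per library, and the counting did not use strand.

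LIF, the IL-6 family member that acts through LIFR and gp130, had the highest mean level of the set per kilobase of exon in young cells (27.1 CPM per kb), at 3 days (34.8) and at 6 days (33.4), while in MetaICM CCL2 stood higher (26.0 against 22.5 CPM per kb). LIF held 127 and 83.0 CPM in young libraries, 148 and 121 after 3 days, 135 and 123 after 6 days, and 85.0 and 89.4 in MetaICM. Young replicate 1 lay among the ICM values and young replicate 2 below the MetaICM values. LIF passed no comparison with young cells: the log2FC was 0.36 ± 0.18 at 3 days (adjusted p = 0.165), 0.29 ± 0.17 at 6 days (adjusted p = 0.193) and -0.28 ± 0.17 in MetaICM (adjusted p = 0.247). Against young replicate 2 alone, the log2FC of LIF was 0.70 at 3 days and 0.63 at 6 days. Against young replicate 1 alone it was 0.08 and 0.03. MetaICM differed from 6 days by -0.57 ± 0.08 (adjusted p = 1.75e-06), just short of the fold threshold of 0.6 on the log2 scale. LIF shares 169 exonic bases with the opposite-strand genes LIF-AS1 and LOC91370.

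CXCL8, the neutrophil chemokine also called IL-8, spanned more CPM between its lowest and highest library than the other chemokines did. Its libraries held 23.2 and 2.40 CPM in young cells, 8.55 and 6.27 after 3 days, 22.0 and 24.1 after 6 days, and 0.644 and 1.09 in MetaICM. The 3-day values lay between the young ones, the 6-day values were close to young replicate 1, and the MetaICM values were below all others. Against both young libraries, CXCL8 was not called at 3 days (log2FC -0.82 ± 0.60, adjusted p = 0.338) or 6 days (0.79 ± 0.57, adjusted p = 0.294). The direction at 3 days depended on the control: the log2FC was -1.63 against young replicate 1 alone and 1.64 against young replicate 2 alone. At 6 days the same fits gave -0.0059 and 3.25.

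Without the young libraries in the fit, the course of CXCL8 was clear of the replicate spread. It rose by 1.61 ± 0.15 from 3 to 6 days (adjusted p = 4.25e-07) and was lower in MetaICM than at 6 days by 4.70 ± 0.19 (adjusted p = 1.58e-14). In MetaICM it was also lower than in young cells, by 3.91 ± 0.81 (adjusted p = 0.00729), and the value was -1.45 without young replicate 1 and -4.72 without young replicate 2.

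CXCL3 moved like CXCL8. It held 2.85 and 0.414 CPM in young libraries, 1.52 and 0.809 after 3 days, 6.07 and 5.05 after 6 days, and 0.149 and 0.347 in MetaICM. Both 6-day libraries lay above all others, and both MetaICM libraries below all others. The MetaICM libraries held 3 and 8 counts and young replicate 2 held 5, so the order among these rests on few counts. CXCL3 rose by 2.18 ± 0.29 from 3 to 6 days (adjusted p = 2.8e-05) and was lower in MetaICM than at 6 days by 4.42 ± 0.35 (adjusted p = 6.38e-10). These values were 2.77 without 3-day replicate 1 and -5.16 without MetaICM replicate 2, both called. Against young cells it rose by 1.65 ± 0.48 at 6 days (adjusted p = 0.0185), a call lost in DESeq2 (adjusted p = 0.244), with all genes with a count in the fit, at an adjusted p under 0.01 and without 6-day replicate 1 (adjusted p = 0.073). Its size was 3.71 against young replicate 2 alone and 0.96 against young replicate 1 alone. At 3 days CXCL3 did not pass (log2FC -0.53 ± 0.61, adjusted p = 0.554), and the value was 1.52 without young replicate 1 and -1.24 without young replicate 2.

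CXCL2 and CXCL1 had few counts. CXCL2 received 39 and 2 counts in young libraries, 9 and 5 after 3 days, 25 and 10 after 6 days, and 0 and 3 in MetaICM. The filter on low counts kept it in the comparisons of 6 days with young cells and of MetaICM with 6 days. At 6 days it differed from young cells by -0.53 ± 0.74 (adjusted p = 0.595), with 2.43 without young replicate 1 and -1.30 without young replicate 2. In MetaICM its pooled level was 13.5-fold lower than at 6 days, with a counting interval from 4.25 to 68.5, and edgeR called it lower (adjusted p = 0.000317). The pooled fold was 7.18 (2.26 to 36.5) without MetaICM replicate 1, at least 6.29 against the floor of 3 counts without MetaICM replicate 2, and 7.66 (1.97 to 43.3) without 6-day replicate 1, with the call kept each time.

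CXCL1 received 29 and 17 counts in young libraries, 0 and 3 after 3 days, 10 and 6 after 6 days, and 18 and 17 in MetaICM. All ICM libraries lay below the young ones in CPM. Pooled over the libraries of a condition, CXCL1 was 19.4-fold lower after 3 days than in young cells (counting interval 6.24 to 97.6), and edgeR called the fall (adjusted p = 0.00151). Its size rested on 3 counts in a single library: it was 7.87-fold lower (2.53 to 39.6) without 3-day replicate 1 and at least 11.5-fold lower, against the floor of 3 counts, without 3-day replicate 2, with the call kept in both. After 6 days it fell by 1.87 ± 0.44 (adjusted p = 0.0063), a call lost without 6-day replicate 2 (adjusted p = 0.0577). In MetaICM the log2FC was -0.96 ± 0.37, which did not pass (adjusted p = 0.0784). Its young libraries were alike, whereas those of its paralogs CXCL2 and CXCL3 were not.

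CCL2, the monocyte chemokine MCP-1, held 7.85 and 6.87 CPM in young libraries, 2.57 and 2.02 after 3 days, 10.1 and 8.02 after 6 days, and 19.1 and 19.4 in MetaICM. The 4 conditions did not overlap. CCL2 fell by 1.67 ± 0.26 after 3 days (adjusted p = 0.000525), rose by 1.95 ± 0.23 from 3 to 6 days (adjusted p = 5.07e-06) and stood 1.09 ± 0.13 higher in MetaICM than at 6 days (adjusted p = 3.24e-07). It was 1.38 ± 0.16 higher in MetaICM than in young cells (adjusted p = 0.000398), whereas the 6-day difference from young cells, 0.29 ± 0.20, did not pass (adjusted p = 0.262). Its direction against young cells at each time was the same with either young library left out.

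IL32, a cytokine without a close paralog that induces other inflammatory mediators, was near the limit of detection in the ICM libraries. It received 45 and 17 counts in young libraries, 8 and 7 after 3 days, 0 in both 6-day libraries, and 51 and 72 in MetaICM. It fell by 2.32 ± 0.48 after 3 days (adjusted p = 0.00356). After 6 days it was at least 26.8-fold lower than in young cells and, in MetaICM, at least 35.5-fold higher than after 6 days, both computed against a floor of 3 counts over the condition, and edgeR called both (adjusted p = 0.000209 and 1.32e-08). The first bound was 17.6-fold against young replicate 2 alone, and a single 6-day library gave bounds of 13.3-fold or more in the first and 17.7-fold or more in the second comparison. Between MetaICM and young cells the log2FC was 0.42 ± 0.33 (adjusted p = 0.354). It was 1.00 without young replicate 1 and 0.08 without young replicate 2.

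**Figure D2:**
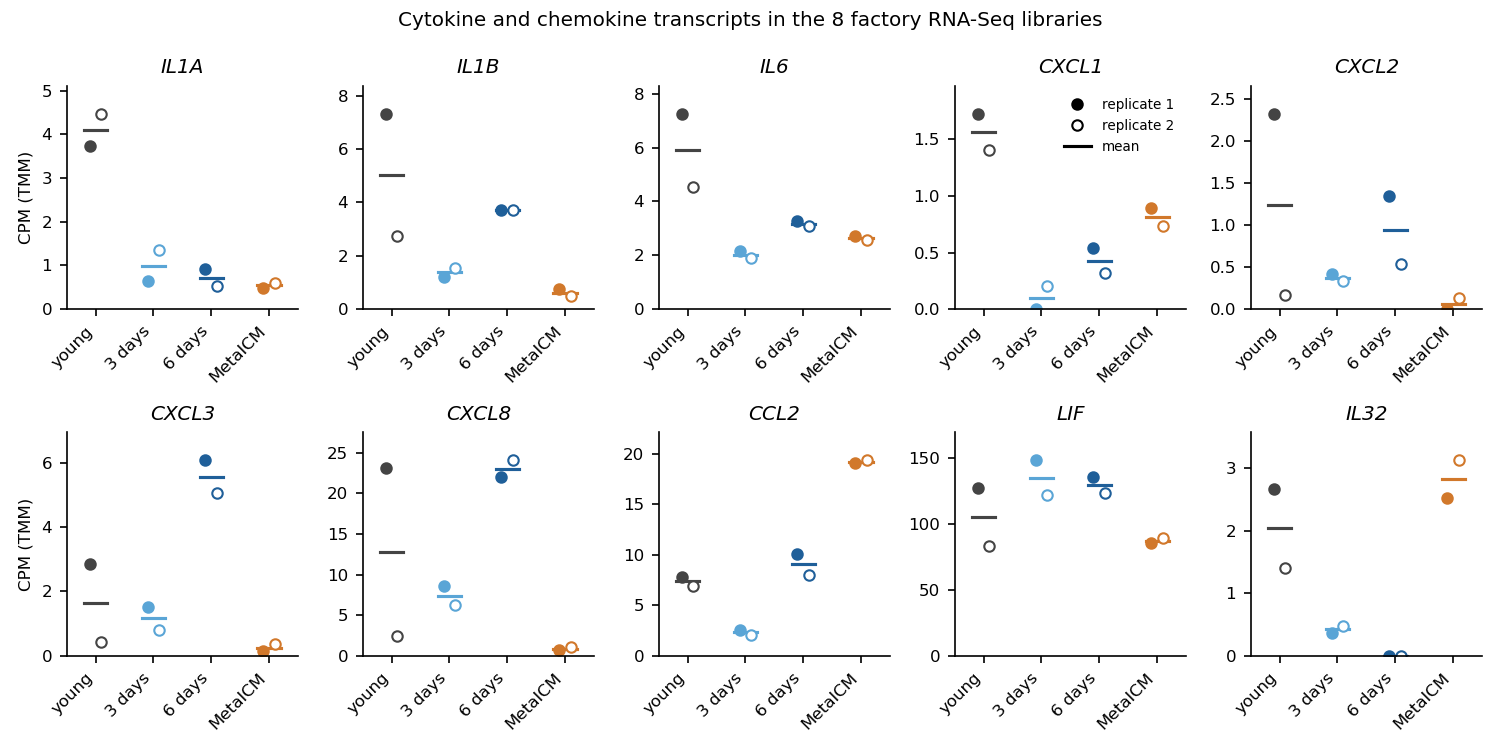
CPM (TMM scaled, linear axis from 0, a scale of its own in each panel) of the 10 genes in the 8 libraries; filled points are replicate 1, open points replicate 2, and bars the mean of 2 libraries. CXCL8 spans 2.40 to 23.2 CPM between the young libraries, and CCL2 in MetaICM stands at 19.1 and 19.4 CPM above all other libraries.

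Counted together after 3 days of ICM, 6 of the 9 genes that passed the filter on low counts were lower than in young cells (IL1A, IL1B, IL6, CXCL1, CCL2 and IL32) and none was higher, with 0 higher at an unadjusted p under 0.05 in edgeR and 0 in DESeq2. A gene was called at an adjusted p under 0.05 with an absolute log2FC over 0.6, and over all 15692 genes tested 13.2% were lower and 8.85% higher. The median log2FC of the 9 genes was -1.67, against 0.01 for all genes. With young replicate 2 as the only control, 5 were lower and 2 higher (CXCL8 and LIF), and with young replicate 1 as the only control 8 were lower. Over all genes, 13.9% were lower and 12.1% higher in the first of these fits, and 13% and 8.32% in the second.

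After 6 days, 4 of 10 genes were lower than in young cells (IL1A, IL6, CXCL1 and IL32) and CXCL3 was higher in edgeR, while DESeq2 called the same number lower and 0 higher, with backgrounds of 17.2% lower and 13.3% higher among 15950 genes. The median log2FC was -0.51, against -0.0013 for all genes. The count turned with the control: 3 lower and 4 higher against young replicate 2 alone, and 6 lower and 1 higher against young replicate 1 alone. Over all genes those fits called 17.9% lower and 15.4% higher, and 17.2% lower and 13.6% higher. Between 3 and 6 days, 4 of the 7 genes tested were higher at 6 days (IL1B, CXCL3, CXCL8 and CCL2) and none was lower, where 3.53% of 15845 genes were higher and 4.54% lower. These 4 calls were kept with any 1 of the 4 libraries left out and in DESeq2, where 0 were lower. The median over the 7 genes was 1.45. IL32, which was not tested, went from 8 and 7 counts to 0 in both libraries.

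In MetaICM, 4 of 8 genes tested were lower than in young cells (IL1A, IL1B, IL6 and CXCL8) and CCL2 was higher, with backgrounds of 8.99% and 7.41% among 15904 genes. CXCL2 and CXCL3 were not tested there. Their pooled levels were 20.4-fold lower (counting interval 6.52 to 103) and 7.21-fold lower (3.72 to 15.3) than in young cells. Both folds rested on young replicate 1: against young replicate 2 alone CXCL2 was 2.39-fold lower (0.199 to 20.8) and CXCL3 1.63-fold lower (0.443 to 5.08), intervals that hold 1. Compared with 6 days, IL1B, CXCL2, CXCL3 and CXCL8 were lower in MetaICM and CCL2 and IL32 higher, which is 4 and 2 of 10 genes against 12% lower and 15.7% higher among 16036 genes. The 4 genes that were lower are those more than 2-fold apart between the young libraries.

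**Figure D3:**
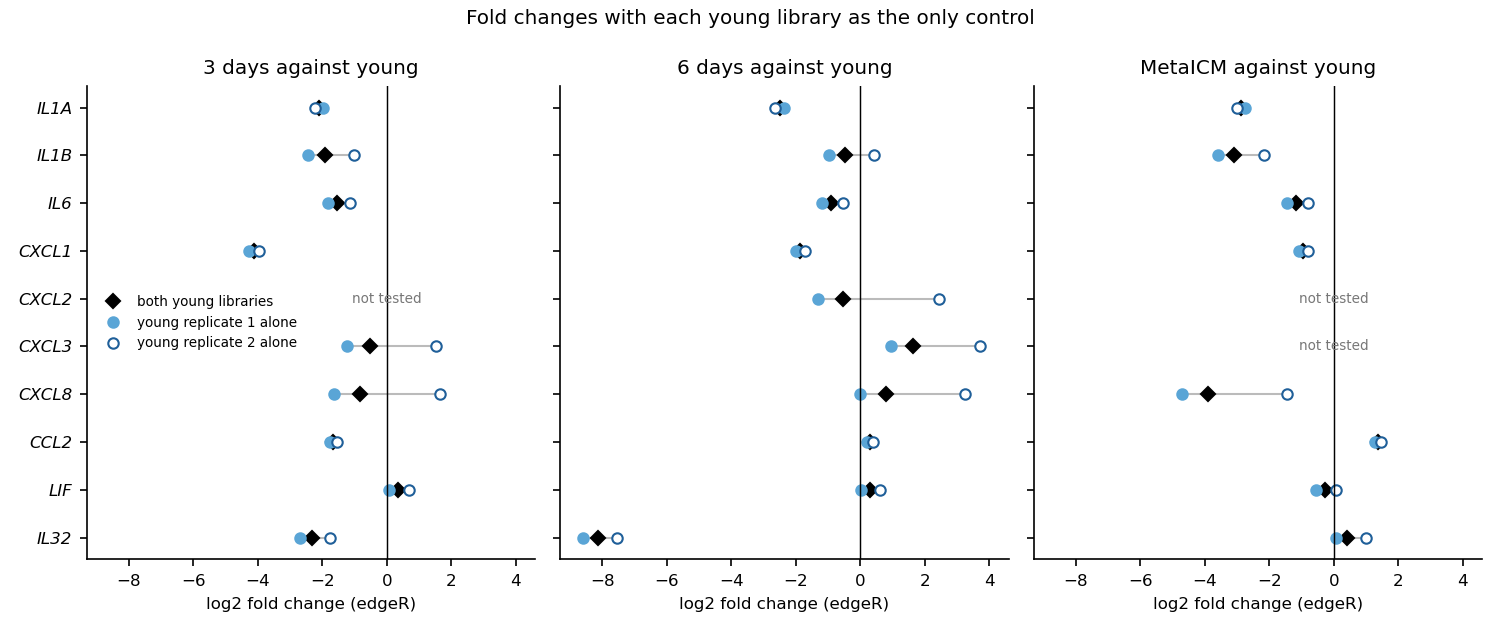
log2 fold change from edgeR against young cells for each gene with both young libraries (diamonds), with young replicate 1 as the only control (filled circles) or with young replicate 2 as the only control (open circles). The points of CXCL8 at 3 days lie on both sides of 0 (-1.63 and 1.64), whereas those of IL1A and CCL2 nearly coincide in all 3 comparisons; the IL32 value at 6 days is a fit against 0 counts and no measure of size.

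**Figure D4:**
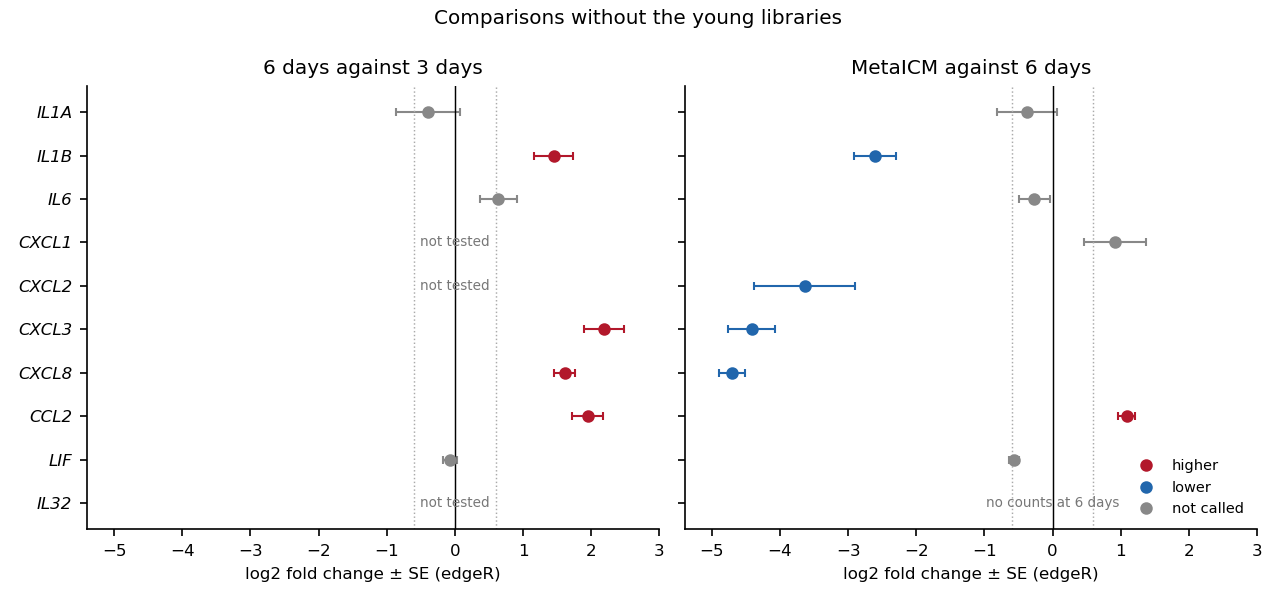
log2 fold change ± SE from edgeR between conditions other than young, with dotted lines at the fold threshold of 0.6 and colours for genes called higher, lower or not called. IL1B, CXCL3 and CXCL8 were higher at 6 than at 3 days and lower in MetaICM than at 6 days, while CCL2 was higher in both panels.

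Over the 8 libraries, CXCL3 and CXCL8 had a Pearson r of log2 CPM of 0.97, CXCL2 and CXCL8 of 0.91 and CXCL2 and CXCL3 of 0.87. CXCL1 was not of this group (r with CXCL8 of -0.22), and IL32 ran against CXCL3 (r of -0.76). The genes outside the set most like each member, among 14460 genes with a mean of at least 1 CPM, were SLC3A2 for CXCL3 (r = 0.98) and MTMR9 (0.97) and GJA1 (0.97) for CXCL8. For CCL2 they were EFEMP1 (0.99) and MASP1 (0.99), for IL32 SPOCD1 (1.00), for IL6 CD58 (0.98), for IL1A KMT5B (0.98) and for LIF CPM, which encodes carboxypeptidase M (0.95). These coefficients describe 8 libraries in 4 conditions and were picked as the highest of many. Apart from CXCL5, the remaining chemokine genes within 200000 bases held few counts: next to CXCL8 and CXCL1, CXCL6 held at most 3 counts in a library and PPBP at most 1, and next to CCL2, CCL7 held at most 2 and CCL8 at most 1.

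Among 35 other cytokine and chemokine genes, 17 were tested at 3 days, with 3 lower and 3 higher, and 18 at 6 days, with 4 lower and 4 higher. MetaICM had 3 lower and 4 higher of 17. For this and the lists below, the shares over all genes tested were 13.2% lower and 8.85% higher at 3 days. They were 17.2% and 13.3% at 6 days and 8.99% and 7.41% in MetaICM. These shares belong to the fits with all 4 libraries, and they changed when a young library was left out. Against young replicate 1 alone, 6 of 17 were lower at 3 days and 7 of 18 at 6 days, and at 6 days 5 in place of 8 were called without 6-day replicate 1 and 4 in DESeq2. Their median log2FC was -0.31, -0.19 and -0.14 in turn, with medians of all genes within 0.01 of 0. TNFSF15, a TNF family ligand, had a log2FC of -1.77 at 3 days, -3.43 at 6 days and -1.75 in MetaICM, although its 3-day and MetaICM calls were lost without young replicate 1. IL33, a nuclear IL-1 family cytokine, fell by 1.22 at 6 days and by 2.52 in MetaICM, and GDF15 rose by 1.44 and 1.83 at 3 and 6 days. The GDF15 calls and the 6-day IL33 call did not pass in DESeq2, and the IL33 call was lost without young replicate 1 or either 6-day library. TNF is listed at 0 in every library, but it is annotated on several chromosome 6 haplotypes, and reads on several places were not counted, so this is no measure of its level.

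Of 16 receptor genes, 9 were tested at 3 and 6 days, with 1 and 3 called higher by edgeR and 0 lower (0 and 1 at an unadjusted p under 0.05; DESeq2 called 0 of either direction at 3 days), and in MetaICM 1 of 8 was lower and 1 higher. At 3 days 2 were higher against young replicate 2 alone and 0 against young replicate 1 alone. IL1R1, the signalling receptor of both IL-1 ligands, fell by 1.14 in MetaICM (24.8 and 23.6 CPM, from 51.5 and 55.0 in young cells). ACKR3, a scavenger receptor for chemokines, rose by 2.46 at 6 days and 3.33 in MetaICM. IL1RL1, the IL-33 receptor, rose by 1.63 at 3 days and 2.40 at 6 days, with 29 and 2 counts in the young libraries. Its calls were lost in DESeq2, and the 3-day call also without young replicate 2. The neutrophil and monocyte receptors CXCR1, CXCR2 and CCR2 held at most 2 counts in a library.

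Of 18 genes for IL-1 processing and signalling, 16 were tested, and 1 was lower and 1 higher at 3 days, 1 lower and 2 higher at 6 days, and 1 lower and 1 higher in MetaICM. The MetaICM calls of this list depended on the young library used as control and on MetaICM replicate 2. The median log2FC of the list in MetaICM was 0.39 against young replicate 2 alone and 0.14 against young replicate 1 alone. At 6 days 3 were lower and 3 higher against young replicate 2 alone, and at 3 days 1 was called against young replicate 1 alone or without 3-day replicate 1. GSDMD, whose product forms pores for IL-1β release, fell by 1.14 at 6 days. CASP4, an inflammatory caspase, rose by 0.90 and 1.10 at 3 and 6 days, and IRAK4, a kinase below the IL-1 receptor, rose by 0.87 at 6 days. The medians of this list were 0.10, 0.08 and 0.31.

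Of 31 genes that regulate the SASP, 28 were tested, and 8 were lower and 4 higher at 3 days, 12 lower and 2 higher at 6 days, and 4 lower and 2 higher in MetaICM, where 3 were called without MetaICM replicate 2. HMGB2 fell by 3.08 at 3 days and by 3.26 at 6 days, and HMGA2 had a log2FC of -2.26 and -2.03. TNFAIP3, an NF-κB target that limits NF-κB signalling, had a log2FC of -2.32, -3.04 and -1.57 in the 3 comparisons. The median log2FC of the list was -0.25, -0.32 and 0.02. Of all genes tested, 13.2%, 17.2% and 8.99% were lower and 8.85%, 13.3% and 7.41% higher in turn.

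Of 10 genes that act on cytokine mRNA stability, 3 were lower at 3 days, 6 at 6 days and 2 in MetaICM. None was called higher in these edgeR fits, with 1, 0 and 0 higher at an unadjusted p under 0.05. The shares over all genes tested were 13.2%, 17.2% and 8.99% lower and 8.85%, 13.3% and 7.41% higher. MEX3B had a log2FC of -1.13 at 3 and -1.99 at 6 days. HNRNPD, which encodes the AU-rich element binding protein AUF1, had -0.98, -1.16 and -0.87 in the 3 comparisons, and ZFP36L1, which encodes a relative of tristetraprolin, -1.0 and -0.86 at 3 and 6 days. The HNRNPD calls at 3 days and in MetaICM and both ZFP36L1 calls were lost without young replicate 2. Against young replicate 1 alone, 1 gene was lower at 3 days and 1 in MetaICM, and against young replicate 2 alone 4 were lower and 1 higher at 3 days. The medians were -0.29, -0.77 and -0.11.

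Of 11 genes of the gp130 to STAT3 route, 1 was lower at 3 days and 3 at 6 days, and 0 were called in MetaICM by edgeR and by DESeq2, where 2 had an unadjusted p under 0.05. CISH (log2FC -1.41) and BCL3 (-1.13) fell at 6 days and SOCS1 (-0.87) at 3 days; the CISH and SOCS1 calls were lost in DESeq2, that of CISH also without 6-day replicate 1 and that of SOCS1 without any 1 of its 4 libraries. Against young replicate 2 alone, 1 gene was lower and 1 higher at 3 days. Of 16 immediate early genes, 2 were lower and 5 higher at 3 days, and 5 were lower and 6 higher at 6 days. In MetaICM 6 were lower and 1 higher, and DESeq2 called 4 at 3 days. EGR3 had a log2FC of -3.25, -3.98 and -3.52 in the 3 comparisons, while NR4A2 rose by 1.72 at 6 days and fell by 2.23 in MetaICM. EGR2 held 14 and 35 counts in young libraries and 2 and 1 at 6 days. Of 17 interferon-stimulated genes, 14 were tested at 3 days, 14 at 6 days and 15 in MetaICM. At 3 days 6 were higher and 1 lower, and at 6 days 5 and 2. In MetaICM edgeR called 7 higher and 0 lower, with 1 lower at an unadjusted p under 0.05. At 3 days 4 of these genes were called in either direction in DESeq2, without young replicate 2 or without 3-day replicate 1. OAS3 had a log2FC of -2.49 and -3.0 at 3 and 6 days, IFI44L of 3.35 and 3.85, and OAS2 rose by 3.97 in MetaICM from 1 and 2 counts in young cells. Beside these lists, 13.2%, 17.2% and 8.99% of all genes tested were lower and 8.85%, 13.3% and 7.41% higher in the comparisons at 3 days, 6 days and MetaICM.

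The cells carried fibroblast transcripts in every library. The summed level of 12 fibroblast markers was 57985 to 64383 CPM in young libraries, 28829 to 29949 after 3 days, 22806 to 22904 after 6 days and 38636 to 41674 in MetaICM, and 8 of 12 tested at 3 days were called lower, COL1A1, FN1 and DCN among them (log2FC -1.23, -1.35 and -1.46). At 6 days 8 of 11 tested were lower, and in MetaICM 1 was lower and 1 higher, with 1 called without MetaICM replicate 2. Much of the sum was FN1, with 38094 and 32467 CPM in young libraries and 18249 and 14344 in MetaICM, and the median log2FC of the list was -0.83 at 3 days, -0.94 at 6 days and -0.04 in MetaICM. Among all genes tested, 13.2%, 17.2% and 8.99% were lower in turn, and 7.41% were higher in MetaICM. The 12 leukocyte markers summed to 8.11 to 8.56 CPM in young libraries and 17.1 to 24.8 in the others, with CD3E and CD3D at 0 everywhere and PTPRC at 2 to 24 counts. Most of that sum was CD68, a lysosomal protein gene, which rose by 1.92 at 3 days, 1.90 at 6 days and 1.41 in MetaICM. CD14 rose by 1.44 in MetaICM, a call lost without young replicate 1 or either MetaICM library. The 8 endothelial markers summed to 133 to 236 CPM, nearly all of it TEK, with PECAM1 at 0 to 9 and CDH5 at 0 to 1 counts, and VWF rose by 0.88 at 6 days, a call lost in DESeq2 and without either 6-day library. The 8 epithelial markers summed to 1.99 to 3.17 CPM, and none of the 2 tested was called, with none at an unadjusted p under 0.05 against young cells. The part of these shifts in the cytokine values was not tested.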

How the data were processed

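The authors aligned paired-end reads with STAR (version 2.6.0c per the labels) to hg19 (GRCh37) and deposited raw counts of read pairs on RefSeq exons, made with featureCounts (version 1.6.3). Per the file headers, strand was not used, both ends had to map, chimeric pairs were left out, and reads on several places or genes were not counted. The intronic counts used in the study were not analysed here.

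Each comparison was fitted on its 4 libraries with edgeR (version 4.0.16, R 4.3.3): TMM factors, a low-count filter (filterByExpr, minimum 10), the quasi-likelihood test and Benjamini-Hochberg adjustment over all genes tested. The SE is the log2FC divided by the square root of the F statistic. Calls needed an adjusted p under 0.05 and an absolute log2FC over 0.6. Ratios of counts have 95% exact binomial intervals, and bounds a floor of 3 counts. The 10 genes and the gene lists were chosen with earlier results of these data known. Named from each list are the 3 genes with the largest log2FC called against young cells, in the comparisons where they were called, and genes needed as background. The most alike genes have the highest r of log2 CPM (prior count 2). CXCL5, TNF and the counts of neighbouring genes were chosen after their values were seen.

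Pooled folds were recomputed with each library left out after the data were seen. Alternatives were DESeq2 (version 1.42.0), its size factors, upper-quartile factors, library totals, other count filters, a joint fit of the 8 libraries, a block for the replicate number, thinning to 12095123 counts, an adjusted p under 0.01, and each library left out, where the lone library was assumed to vary like the other condition. On simulated data with 200 changed genes, 195 (6 against 3 days, 15845 genes) to 199 were recovered, with 2 (MetaICM against 6 days, 16036 genes) to 18 false calls (6 days against young, 15950 genes). These totals pool all changed genes and give no rate for genes with few counts. Sequences were handled with Python 3.11.15 and Biopython 1.88.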

Additional observations from a re-analysis of the deposited data

Results flagged for a closer look

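After 6 days of ICM, 4 of the 7 genes tested were called different from their level after 3 days. CXCL1, CXCL2 and IL32 were not tested. Over all 15845 genes tested, 3.53% were higher and 4.54% lower. IL1B was higher by 1.45 on the log2 scale, CXCL3 by 2.18, CXCL8 by 1.61 and CCL2 by 1.95, each higher in both 6-day libraries than in both 3-day libraries. Among the other genes named, ACKR3 (1.40), NR4A2 (1.12) and IL1RL1 (0.78) were higher at 6 than at 3 days in edgeR's test, and TNFSF15 (-1.66), GSDMD (-0.83), MEX3B (-0.86), COL1A1 (-0.94) and EGR2 (-3.04, from 18 and 8 counts to 2 and 1) were lower.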

How the results depend on the processing

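Under the alternatives that keep all libraries, no log2 fold change of the 10 genes changed direction, 441 values kept their side of the thresholds, 4 lost and 2 gained a call. The number of genes called at 6 days against young cells, 5 as reported, was 2 with at least 10 counts in every library, 3 at an adjusted p under 0.01, and 3 to 7 with 1 library left out. The number for MetaICM against 6 days, 6 as reported, was 3 with at least 10 counts in every library. In both comparisons that filter left 6 genes to test, with CXCL1, CXCL2, CXCL3 and IL32 untested. The calls missing under it were of these untested genes. Same-numbered deviations had correlations between -0.11 and 0.17 across conditions, which does not settle whether the replicate numbers pair libraries. With the replicate block CXCL8 was called higher at 6 days against young cells (1.17, adjusted p = 0.00363), which made 6 calls, while no other call in that comparison changed. At 3 days against young cells CXCL8 was not called as reported, and 9 of the 10 alternatives that keep all libraries left it so. With 1 library left out, 11 values changed sign. The ranges were -1.24 to 1.52 for CXCL3 and -1.63 to 1.64 for CXCL8 at 3 days against young cells. At 6 days against young cells they were -0.97 to 0.43 for IL1B, -1.32 to 2.43 for CXCL2 (0.00056 without 6-day replicate 2) and -0.0059 to 3.25 for CXCL8. At 6 against 3 days they were -0.90 to 0.15 for IL1A and -0.20 to 0.0902 for LIF (0.00117 without 6-day replicate 2). For LIF in MetaICM against young cells the range was -0.55 to 0.0674, and for IL1A in MetaICM against 6 days -0.71 to 0.0614. Depth limits CXCL1, CXCL2, CXCL3 and IL32, where single libraries held 0 to 3 counts.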
